A study of Homo sapiens with 2 samples.

Results

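Of the 5706 barcodes in 2 single-cell libraries of A549 cells, 133 of 2574 in the control library and 366 of 3132 in the squashed library held at least 1000 unique molecular identifiers (UMIs, 1 per captured RNA molecule) but fewer than 500 detected genes. They were selected on their measured UMI and gene numbers, at any share of mitochondrial RNA. Both libraries were made from A549, an established human line of lung adenocarcinoma cells with an epithelial label, whose live cells had been sorted for loss of a chromosome reporter. Control cells had grown in 2D culture, and squashed cells had been confined with micropillars of polydimethylsiloxane (PDMS), each with a recovery of 48 h before the sort. Reporter loss is a state of about 1 cell in 500, so both groups share that selection, and each group is 1 library with the same batch label. Differences between squashed and control therefore compare 2 libraries and have no replicate error, no test was made, and the 95% intervals cover counting error only.

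A droplet barcode collects whatever polyadenylated RNA its droplet held, which can be a whole cell, a damaged cell, a fragment or free RNA. The mitochondrial genome encodes core subunits of the respiratory chain and ATP synthase, and its transcripts stay inside the organelle, while most nuclear-encoded mRNAs lie in the cytosol. A few long non-coding RNAs, among them MALAT1 of nuclear speckles and NEAT1 of paraspeckles, remain in the nucleus. How much of each kind a barcode holds is therefore commonly used to describe droplets.

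The nuclear-encoded genes with the highest ratio of barcodes under 500 genes to barcodes with 500 or more were MTRNR2L12 and MTRNR2L8, a pair of nuclear pseudogene copies of MT-RNR2, the 16S ribosomal RNA of the mitochondrial ribosome. MT-RNR2 itself is not among the 13 genes with the prefix MT- that were counted. MTRNR2L12 lies at chr3:96617186-96618223 on the minus strand and MTRNR2L8 at chr11:10507887-10509176 on the minus strand, in RefSeq's GRCh38.p14. MTRNR2L12 aligned to bases 13 to 1048 of the 1559 bases of MT-RNR2, with 987 of 1037 alignment columns identical (95.2%). MTRNR2L8 aligned to bases 13 to 1302, with 1202 of 1291 columns identical (93.1%). The stretch below, bases 929 to 1048 of MT-RNR2 and the last bases of the aligned MTRNR2L12 copy, is shown because UMIs counted for either pseudogene cannot be told apart with certainty from UMIs of MT-RNR2. Capitals mark bases that differ from MT-RNR2, 4 of 120 in MTRNR2L12 and 6 of 120 in MTRNR2L8.
MT-RNR2 (chrM:2599-2718, plus strand): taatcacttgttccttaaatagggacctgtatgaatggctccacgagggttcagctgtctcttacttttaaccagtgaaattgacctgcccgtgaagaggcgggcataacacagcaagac
MTRNR2L12 (chr3:96617188-96617307, minus strand): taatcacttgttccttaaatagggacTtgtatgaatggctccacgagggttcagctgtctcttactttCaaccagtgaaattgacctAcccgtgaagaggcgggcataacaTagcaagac
MTRNR2L8 (chr11:10508141-10508260, minus strand): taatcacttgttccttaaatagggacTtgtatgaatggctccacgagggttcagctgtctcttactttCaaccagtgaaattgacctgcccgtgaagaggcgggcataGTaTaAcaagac

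Barcodes under 500 genes made up 5.17% of the control library's barcodes (exact Clopper-Pearson 95% interval 4.34 to 6.09%) and 11.7% of the squashed library's (10.6 to 12.9%). Among barcodes with at least 1000 UMIs the shares were 5.76% (4.84 to 6.79%) and 13% (11.8 to 14.3%). With a limit of 400 genes in place of 500 the shares of all barcodes were 3.61% and 3.64%, so the higher share in the squashed library rests on barcodes with 400 genes or more. Under 500 genes the barcodes held 277571 of 30565366 UMIs in the control library (0.908%) and 547140 of 26829300 in the squashed library (2.04%). Of the other barcodes with at least 1000 UMIs, 2176 in the control and 2449 in the squashed library had 500 or more genes. The barcodes below 1000 UMIs, 265 and 317, are used only as a side comparison. The libraries shared 4 barcode sequences, none of them under 500 genes, and no barcode under 500 genes was 1 base away from another barcode of its library.

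Barcodes under 500 genes of the 2 libraries differed in gene number and in MT- share. In the control library they held 1007 UMIs at the lowest, 1706 at the median and 10714 at the highest, with 154, 291 and 496 genes. The squashed ones held 1000, 1334 and 8087 UMIs, with 291 and 421 genes and 1 gene short of the limit. The squashed barcodes thus lay in a narrow band of gene number, and the control barcodes ran down to far fewer genes. UMIs from the 13 MT- genes took 1.16% at the lowest, 74.0% at the median and 97.1% at the highest in the control barcodes. In the squashed barcodes they took 0.199%, 42.9% and 89.6%. Nuclear-encoded UMIs numbered 194, 449 and 2392 per control barcode and 458, 779.5 and 1219 per squashed barcode. The medians in barcodes with 500 or more genes were 10807 nuclear-encoded UMIs and a 6.92% MT- share in the control library, and 6980 and 9.17% in the squashed library.

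**Figure D1:**
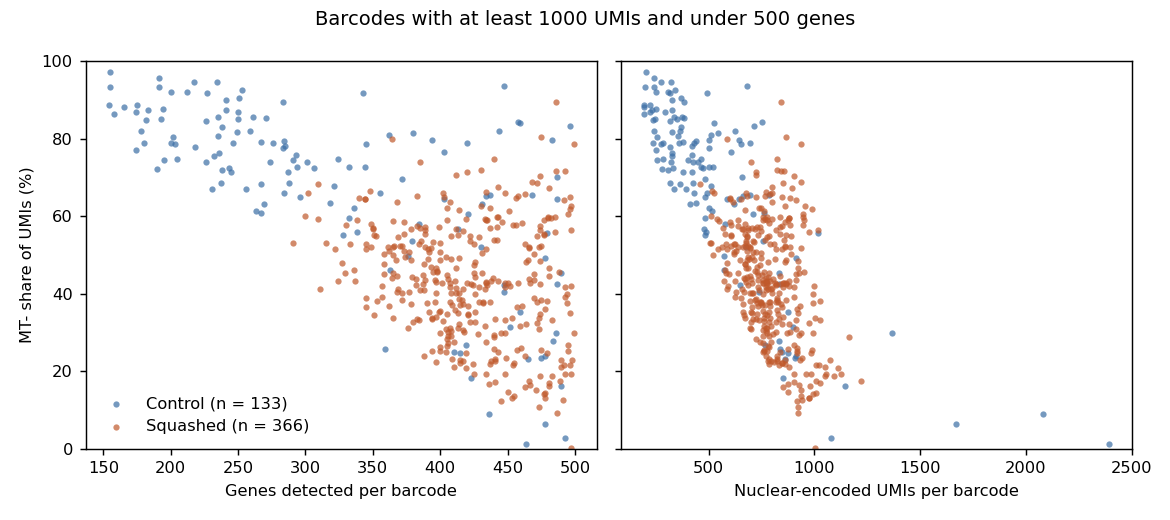
Each point is 1 barcode with at least 1000 UMIs and fewer than 500 genes, 133 control and 366 squashed. The percent of UMIs from MT- genes on the vertical axis is set against its detected genes (left) and its nuclear-encoded UMIs (right). Control points reach down to 154 genes and up to a 97.1% MT- share, and squashed points lie between 291 genes and the limit.

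Sorted by MT- share, 79 of the 133 control barcodes (59.4%) were above 70% MT-, 30 lay between 50 and 70%, 18 between 20 and 50% and 6 at or below 20%. Of the 366 squashed barcodes, 208 (56.8%) lay between 20 and 50% MT-, 119 between 50 and 70%, 27 at or below 20% and 12 above 70%. In the control library the median gene number went from 471 in the class at or below 20% MT- to 245 in the class above 70%, and median nuclear-encoded UMIs from 1409 to 340. In the squashed library the median gene numbers of the 4 classes, from the lowest MT- share up, were 473, 415.5, 408 and 457, and the median nuclear-encoded UMIs 974, 779.5, 732 and 831.5. Gene number was thus lower in each higher class of MT- share among control barcodes, and among squashed barcodes down to the class of 50 to 70%, beyond which only 12 barcodes lay. The 18 control barcodes with fewer than 200 genes had a median MT- share of 87.2%, and no squashed barcode had so few genes. The rule sets an upper limit on genes beside a lower limit on UMIs, so these shares describe what it selected.

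Barcodes with 450 or more but fewer than 500 genes, 22 control and 110 squashed, had median MT- shares of 39.0% and 40.8% and medians of 869 and 912.5 nuclear-encoded UMIs. Those with 500 or more but fewer than 550 genes, 19 and 107, had median MT- shares of 26.9% and 38.0% and medians of 1003 and 1011 nuclear-encoded UMIs. Ribosomal protein mRNAs took 34.7% and 37.7% of nuclear-encoded UMIs just below the limit and 35.5% and 35.9% just above it. Nuclear-retained RNA took 1.13% and 0.310% of the pooled nuclear-encoded UMIs just below and just above the limit in the control library, and 0.210% and 0.262% in the squashed library. The median share of nuclear-retained RNA per barcode was 0.173% just below and 0.251% just above the limit in the control library. In the squashed library these medians were 0.127% and 0.210%. The control median MT- share thus stepped down across the limit, with squashed values closer together. For nuclear-retained RNA the pooled and median control shares went in opposite directions.

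At equal depth the classes differed in gene number over all UMIs and hardly over nuclear-encoded UMIs. Thinned to 1000 UMIs of any gene, barcodes under 500 genes had medians of 192 genes in the control and 339 in the squashed library, against 510 and 461 in barcodes with 500 or more genes. Thinned to 150 nuclear-encoded UMIs, they had medians of 119 and 118 genes, against 122 and 119. Barcodes with 500 or more genes but over 20% MT- UMIs, 270 control and 519 squashed, had medians of 359.5 and 367 genes at 1000 UMIs and of 123 and 122 at 150 nuclear-encoded UMIs.

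Summed after thinning each barcode to 1000 UMIs, the RNA of control barcodes under 500 genes was 67.9% MT-, 11.5% ribosomal protein mRNA, 0.223% nuclear-retained long non-coding RNA and 20.4% other. The squashed library's shares were 43.1%, 22.4%, 0.143% and 34.3%. Barcodes with 500 or more genes held 12.3%, 29.6%, 1.44% and 56.7% in the control library and 15.6%, 31.0%, 1.42% and 52.0% in the squashed library. The barcodes closest to them in MT- share, those with 500 or more genes and over 20% MT-, held 47.0% MT- and 4.79% nuclear-retained RNA in the control library and 45.3% and 3.86% in the squashed library. The squashed barcodes under 500 genes therefore had an MT- share close to that of the squashed barcodes over 20% MT-, with far less nuclear-retained RNA and more ribosomal protein mRNA.

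**Figure D2:**
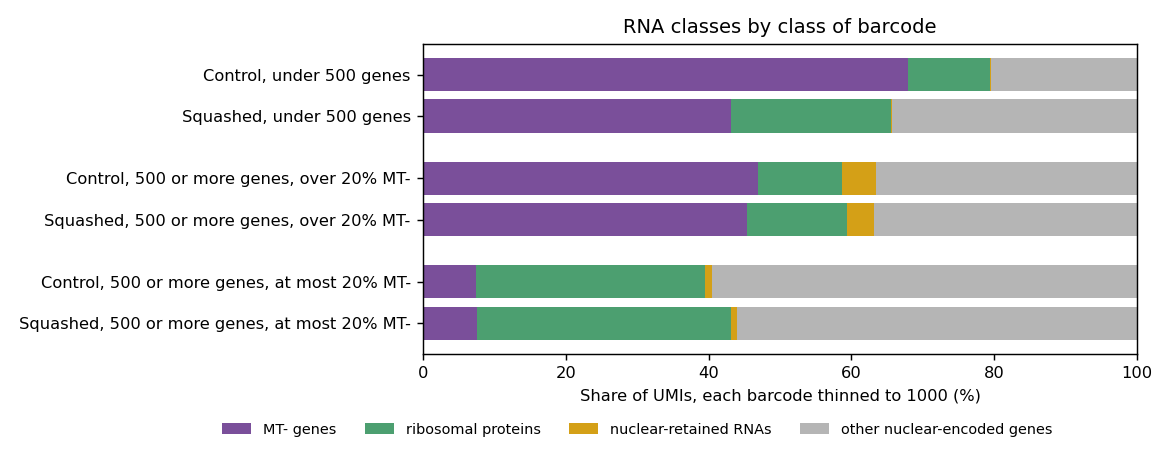
Stacked bars give the percent of UMIs, thinned to 1000 per barcode, from MT- genes, ribosomal protein genes, nuclear-retained long non-coding RNAs and all other genes, for 3 classes of barcode in each library. MT- genes take 67.9% and 43.1% in control and squashed barcodes under 500 genes, and the nuclear-retained class is widest in barcodes with 500 or more genes and over 20% MT-.

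Within the MT- genes, the barcodes under 500 genes held nearly the same mixture as the other barcodes of their own library. MT-CO3, a subunit of cytochrome c oxidase, took 22.2% of MT- UMIs in control barcodes under 500 genes and 22.8% in those with 500 or more, and 15.9% and 17.4% in the squashed library. MT-CO1, the catalytic subunit of the same complex, took 13% and 11.2% in the control and 18.3% and 16.6% in the squashed library. MT-ATP6, a subunit of ATP synthase, took 14.3% and 14.7%, then 11.6% and 12.4%. Over all 13 MT- genes and both libraries, the log2 ratio of these shares ran from -0.47 to 0.36, both extremes from MT-ND4L, a small complex I subunit and one of the least abundant.

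The MT- mixtures of the 2 libraries differed from each other, in barcodes under 500 genes and in the others. MT-ND3, a complex I subunit, took 4.40% of MT- UMIs in control and 10.0% in squashed barcodes under 500 genes, a log2 ratio of 1.19, and the ratio was 1.01 in barcodes with 500 or more genes. MT-ND4L had ratios of 2.22 and 1.39, and MT-ATP8, the smallest ATP synthase subunit, 1.51 and 1.22. MT-CO1 had 0.49 and 0.57. At the other end were MT-ND1 with -0.49 and -0.58, MT-CO3 with -0.48 and -0.39 and MT-CYB, the cytochrome b of complex III, with -0.36 and -0.30. The values of both kinds of barcode come from the same 2 libraries, so they are set side by side only.

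The pseudogenes shown above were high in barcodes under 500 genes. Levels of nuclear-encoded genes are given as CPM, the count scaled by 1e6 over the nuclear-encoded UMIs, summed over barcodes thinned to 1000 UMIs. MTRNR2L12 stood at 15362 CPM in control barcodes under 500 genes and 694 CPM in those with 500 or more, a log2 ratio of 4.47 (4.33 to 4.60). Its levels were 6216 and 962 CPM in the squashed library, a ratio of 2.69 (2.59 to 2.79). MTRNR2L8 stood at 1124 and 69.7 CPM in the control library (4.02) and at 1508 and 252 CPM in the squashed library (2.58). Expressed per 1000 MT- UMIs, the difference was much smaller. MTRNR2L12 then had 7.27 UMIs (6.72 to 7.84) in control barcodes under 500 genes and 4.96 (4.70 to 5.24) in the others, and 8.20 (7.76 to 8.66) and 5.22 (4.99 to 5.45) in the squashed library. MTRNR2L8 had 0.532 and 0.498 per 1000 MT- UMIs in the control and 1.99 and 1.37 in the squashed library. At 1000 UMIs MTRNR2L8 was found in 25.6% of control barcodes under 500 genes. With 500 or more genes it was found in 5.93% of those over 20% MT- and 5.19% of those at or below 20%. The squashed shares, in the same order, were 45.9%, 29.9% and 11.7%. MTRNR2L12 was found in 94.7%, 60% and 33.2% in the control and in 89.3%, 75.1% and 31.0% in the squashed library. The part of the MT- share in these values was not tested. At full depth MTRNR2L12 had a UMI in 132 of the 133 control and 345 of the 366 squashed barcodes under 500 genes.

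For the remaining nuclear-encoded RNA, genes were called measured with at least 50 CPM and 20 UMIs on either side. In the control library 117 of 2164 measured genes were at least 2-fold higher in barcodes under 500 genes (5.41%) and 271 were at least 2-fold lower (12.5%). For squashed barcodes, 30 of 1936 were at least 2-fold higher (1.55%) and 76 at least 2-fold lower (3.93%). The medians over measured genes were -0.09 and -0.04 on the log2 scale. With MT- UMIs in the denominator these medians moved by -1.46 and -0.56, and with TMM scaling the control median moved by -0.48. The ratios below are therefore relative to nuclear-encoded RNA, and list sums near 0 change sign with the scaling, secreted and cytoskeletal genes in the control library among them. The counts of the control library rest on little RNA, with 42704 thinned nuclear-encoded UMIs against 208179 in the squashed library, and 1620 of the 2164 genes had fewer than 10 UMIs in its barcodes under 500 genes. Genes whose whole 95% interval lay past 2-fold numbered 8 higher and 3 lower in the control library (0.37% and 0.139%) and 7 higher and 3 lower in the squashed library (0.362% and 0.155%). Because gene number chose the barcodes, these ratios describe the selected barcodes and nothing is read from their number.

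Beside MTRNR2L12 and MTRNR2L8, the genes with whole intervals past 2-fold higher in both libraries were MAP1B and COL18A1. MAP1B, a microtubule-associated protein encoded at chr5:72107234-72209565, stood at 1030 CPM in control barcodes under 500 genes and 281 CPM in the others, a log2 ratio of 1.89 (1.40 to 2.32). Its squashed levels were 1345 and 547 CPM, a ratio of 1.30 (1.11 to 1.49). COL18A1, a basement membrane collagen encoded at chr21:45405165-45513720, stood at 468 and 66.5 CPM in the control library, a ratio of 2.85 (2.06 to 3.50), from 20 thinned UMIs under 500 genes. The squashed library had it at 322 and 93.3 CPM, a ratio of 1.79 (1.36 to 2.19), from 67 UMIs.

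The other genes among the 12 with the highest ratios in both libraries included COL4A2, a basement membrane collagen, with 1.85 in the control and 1.40 in the squashed library. FLNA, the actin cross-linker filamin A, had 1.89 and 1.43, and MYH9, the heavy chain of non-muscle myosin, had 1.66 and 1.17. APLP2, a relative of the amyloid precursor protein, had 1.76 and 1.37. ITGAV, an integrin subunit, had 1.61 and 1.26, and C1R, a complement protease, 1.78 and 1.13. PLEC, the cytoskeletal linker plectin, had 1.50 and 1.13, and CHD4, a chromatin remodeller, 1.48 and 1.04. These genes encode secreted, membrane, cytoskeletal and nuclear proteins. Each of these 8 genes rests on 7 to 22 thinned UMIs in the control barcodes under 500 genes.

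Set against barcodes with 500 or more genes and over 20% MT-, most of these genes no longer stood apart in the squashed library. MAP1B had a log2 ratio of -0.01 (-0.24 to 0.22) there, COL18A1 of -0.39 (-0.85 to 0.05), COL4A2 of -0.42 (-0.91 to 0.05) and FLNA of 0.07 (-0.74 to 0.84). PLEC was lower, at -0.90 (-1.48 to -0.36). MAP1B was higher there in the control library, at 1.19 (0.60 to 1.76), and MYH9 had 1.05 (0.20 to 1.84), while COL18A1 had 0.36 (-0.48 to 1.11). MTRNR2L12 was higher than in those barcodes in both libraries, at 2.59 (2.40 to 2.78) in the control and 0.90 (0.78 to 1.03) in the squashed library. When both sides were restricted to 20 to 60% MT-, COL18A1 turned to -0.16 and PLEC to -0.68 in the squashed library. In the squashed library, high levels of COL18A1, COL4A2 and FLNA were thus shared with the barcodes over 20% MT- that had 500 or more genes. For FLNA in the control library 8 and 14 thinned UMIs were too few to tell, with a ratio of 0.97 (-0.52 to 2.29).

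**Figure D3:**
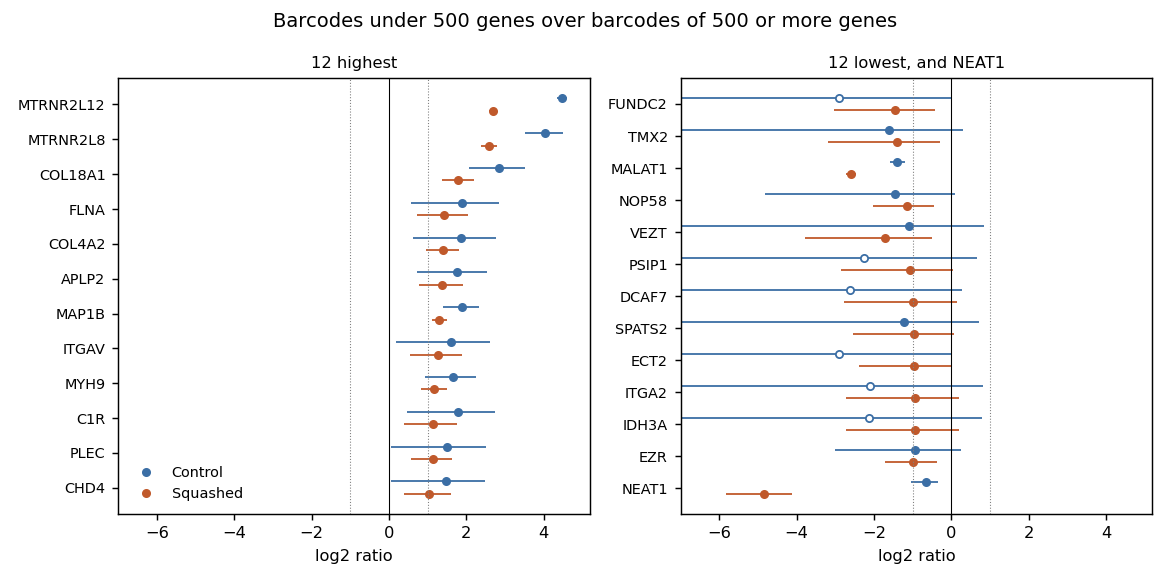
Points give the log2 ratio of CPM in barcodes under 500 genes over barcodes with 500 or more genes, with 95% counting intervals, for the 12 genes highest and the 12 lowest in both libraries and NEAT1; open circles mark genes without a UMI on one side and dotted lines mark 2-fold. MTRNR2L12 lies at 4.47 and 2.69, and MALAT1 at -1.39 and -2.60, in the control and squashed library.

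Several genes passed with their whole interval in 1 library and were picked for naming after their values were seen. For the control library they were FTH1, the ferritin heavy chain, at 4262 against 1430 CPM (1.58, 1.35 to 1.79), PSAP, the lysosomal protein prosaposin, at 1054 against 365 CPM (1.54, 1.06 to 1.96), PRMT1, an arginine methyltransferase, and UBE2S, a ubiquitin-conjugating enzyme of mitosis. FTH1 had 0.53 (0.38 to 0.67) and PSAP 0.67 (0.41 to 0.92) in the squashed library. The genes of the squashed library were HSPG2, the basement membrane proteoglycan perlecan, at 101 against 23.7 CPM (2.11, 1.28 to 2.85), CDC42BPB, a kinase of the actin cytoskeleton (2.02, 1.30 to 2.67), and CHD3, a chromatin remodeller (1.78, 1.20 to 2.30). HSPG2 passed the filter only through the barcodes under 500 genes, where it is high, so its place here is not read as a result. FTH1 has many processed copies in the genome, so its count is uncertain.

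Among the gene lists with a measured gene, nuclear-retained long non-coding RNA had the lowest summed ratio in both libraries. MALAT1, encoded at chr11:65497640-65508073, stood at 5152 CPM in control barcodes under 500 genes and 13542 CPM in the others, a log2 ratio of -1.39 (-1.59 to -1.20). In the squashed library it stood at 2426 and 14734 CPM, a ratio of -2.60 (-2.73 to -2.48). NEAT1, encoded at chr11:65422774-65445540, stood at 1639 and 2614 CPM in the control library, a ratio of -0.66 (-1.03 to -0.33). In the squashed library it stood at 62.4 and 1870 CPM, a ratio of -4.85 (-5.82 to -4.13). At full depth the 366 squashed barcodes under 500 genes held 17 NEAT1 UMIs, never more than 1 in a barcode. The 133 control barcodes held 142 NEAT1 UMIs in 22 barcodes, of which 86 came from 2 barcodes, so the control value rests mainly on that pair. KCNQ1OT1, a nuclear antisense RNA, had 1 UMI in the control barcodes and was found in 0 of the 366 squashed barcodes under 500 genes (exact 95% interval up to 1.00%), which limits barcodes with a UMI at this depth and not the presence of the RNA.

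The summed list of nuclear-retained long non-coding RNAs stood at 6931 CPM in control barcodes under 500 genes and 16376 CPM in the others (-1.24, -1.41 to -1.08), and at 2507 and 16763 CPM in the squashed library (-2.74, -2.87 to -2.62). Against barcodes with 500 or more genes and over 20% MT-, which stood at 90268 and 70522 CPM, the ratios were -3.70 and -4.81. Against all barcodes with 500 or more genes, the typical barcode did not carry this difference. The median share of nuclear-encoded UMIs in this class was 0.270% in control and 0.212% in squashed barcodes under 500 genes, against 0.253% and 0.226% in those with 500 or more. In those with 500 or more genes and over 20% MT- the medians were higher, at 7.00% in the control and 1.13% in the squashed library. The highest barcodes differed, with 10.1% and 2.67% under 500 genes and 55.1% and 37.5% with 500 or more. Among barcodes with at least 1000 UMIs, control shares above 10.1% and squashed shares above 2.67% were thus found only with 500 or more genes. In the control library some barcodes under 500 genes were still rich in these RNAs, while in the squashed library none of the 366 exceeded 2.67%.

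GABPB1-AS1, a long non-coding RNA, was the other gene with its whole interval past 2-fold lower in the squashed library, with 1 thinned UMI under 500 genes and a ratio of -3.41 (-9.30 to -1.49). In the control library CAV1, the main protein of caveolae, and RAB10, a vesicle transport GTPase, had no thinned UMI under 500 genes. Against a floor of 3 UMIs over the library, CAV1 was at least 2.73-fold lower than in barcodes with 500 or more genes, and at full depth it had 4 UMIs. In the squashed library CAV1 stood at 183 against 232 CPM, a ratio of -0.33 (-0.86 to 0.13). EZR, the membrane-actin linker ezrin, had 93.7 against 203 CPM in the control (-0.95, -3.0 to 0.25) and 101 against 204 CPM in the squashed library (-0.98, -1.72 to -0.38). The remaining genes of the 12 lowest in both libraries (FUNDC2, TMX2, NOP58, VEZT, PSIP1, DCAF7, SPATS2, ECT2, ITGA2 and IDH3A) had 0 to 4 thinned UMIs in the control barcodes under 500 genes, too few to place their ratios.

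Ribosomal protein genes took nearly the same part of nuclear-encoded RNA in both kinds of barcode. All 47 measured genes of the large ribosomal subunit were within 2-fold of the barcodes with 500 or more genes in both libraries, and their summed level stood at 202979 against 193883 CPM in the control (log2 ratio 0.07) and 226685 against 212547 CPM in the squashed library (0.09). Of 33 small subunit genes, 1 was at least 2-fold lower in the control and none in the squashed library, with sums at 0.11 and 0.12. The nuclear-encoded subunits of oxidative phosphorylation, which assemble with the MT- encoded ones, had medians of -0.06 over 55 genes and 0.16 over 54, with 1 gene at least 2-fold lower in the control and none otherwise. The sum of these genes was -0.07 (-0.16 to 0.02) and 0.11 (0.07 to 0.14), so nuclear-encoded respiratory genes did not share the excess of the MT- genes.

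Protein degradation and folding genes were also close to the other barcodes. Of 24 and 23 measured proteasome subunits, 1 was at least 2-fold lower in the control library and none in the squashed library, and none of 13 cytosolic heat shock chaperones was past 2-fold in either. Targets of the stress regulator NRF2 and aldo-keto reductases, which A549 expresses strongly, summed to 59456 against 65590 CPM in the control (-0.14, -0.20 to -0.08) and 67192 against 63353 CPM in the squashed library (0.08, 0.06 to 0.11). In this list FTH1 was at least 2-fold higher in the control library, whereas AKR1C3, an aldo-keto reductase, had -0.42 in the control and 0.23 in the squashed library. Tubulin and actin cytoskeleton genes had sums of 0.15 and 0.06, with 1 of 26 higher and 2 lower in the control and none of 25 past 2-fold in the squashed library.

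Genes of mitosis and glycolysis had sums below 0 in both libraries. G2/M genes summed to 5667 against 7105 CPM in the control (-0.32, -0.52 to -0.14), with 10 of 31 at least 2-fold lower and 1 higher, against 12.5% and 5.41% of all measured genes. The squashed sums were 4083 against 5617 CPM (-0.46, -0.56 to -0.36), with 3 of 28 lower and none higher, against 3.93% and 1.55%. ANP32E, a histone chaperone in that list, had -0.67 and -1.34, KIF23, a cytokinesis kinesin, -1.32 and -0.69, and CKAP2, a spindle protein, -0.69 and -0.78. Glycolysis genes summed to -0.38 (-0.52 to -0.24) and -0.20 (-0.25 to -0.14), with LDHA, lactate dehydrogenase A, at -1.06 and -0.34, TPI1, triosephosphate isomerase, at -0.96 and -0.37, and PGAM1, phosphoglycerate mutase, at -0.76 and -0.77. Barcodes with 500 or more genes and over 20% MT- were not higher in these 2 lists. Thinned to 150 nuclear-encoded UMIs, their mean G2/M share was 0.316% in the control library, against 0.662% under 500 genes. In the squashed library it was 0.438% against 0.463%. Mean glycolysis shares were 0.793% against 0.942% in the control and 1.29% against 1.42% in the squashed library. Splicing factors and hnRNPs had medians of -0.38 and -0.17 over 23 genes.

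Of the secreted and extracellular matrix genes, 4 of 11 measured were at least 2-fold higher in the control library, where 5.41% of all genes were, and 2 of 14 in the squashed library, where 1.55% were, and none was lower. With MT- UMIs in the denominator the median of this list lay below 0 in both libraries. LAMC1, a laminin chain, had 1.48 and 0.71, LAMB1, another laminin chain, 1.80 and 0.45, and FN1, fibronectin, 0.87 and 0.48. Against barcodes with 500 or more genes and over 20% MT-, FN1 was lower, at -1.53 in the control and -1.74 in the squashed library. ER chaperones had medians of 0.49 and 0.22, with PDIA3, a disulfide isomerase, at 1.43 and 0.35.

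Set against barcodes with 500 or more genes and over 20% MT-, the barcodes under 500 genes held relatively more short transcripts. In the control library 65 of 1004 measured genes were at least 2-fold higher (6.47%) and 230 at least 2-fold lower (22.9%), and in the squashed library 33 of 1942 higher (1.7%) and 480 lower (24.7%). Large ribosomal subunit genes had sums of 0.67 and 0.62, and nuclear-encoded genes of oxidative phosphorylation of 0.54 and 0.44. Outside the ribosomal proteins, genes with canonical transcripts above 4000 nucleotides had medians of -0.94 over 281 genes and -1.06 over 635, and 47.3% and 52.4% of them were at least 2-fold lower. Genes above 500 and up to 1000 nucleotides had medians of 0.44 and 0.41. Against all barcodes with 500 or more genes, the medians above 4000 nucleotides were -0.09 and -0.14.

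The labelled cell type was present in the barcodes under 500 genes by several of its markers. KRT8, KRT18 and KRT81, keratins of the epithelial cytoskeleton, stood at 1077, 1780 and 10069 CPM in control and at 1292, 557 and 3223 CPM in squashed barcodes under 500 genes, all within 2-fold of the other barcodes of their library. EPCAM, CDH1, CLDN4 and CLDN7, of epithelial adhesion and junctions, had no thinned UMI under 500 genes in either library, and EPCAM had none with 500 or more genes either. Of 14 epithelial genes, 6 were at 0 in the control and 4 in the squashed library. Markers of other cell types were near 0. All 11 erythroid markers were at 0 in both libraries. Platelet, immune, fibroblast and endothelial markers summed to 4, 1, 1 and 2 thinned UMIs in control and to 14, 8, 5 and 1 in squashed barcodes under 500 genes. In the control library 1 gene of each of these lists was above 0. Their part in other results was not tested. KRT81 has close relatives among the hair keratins, so its count is uncertain.

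Barcode-to-barcode variation of nuclear-encoded RNA was low in the squashed barcodes under 500 genes. After thinning to 150 nuclear-encoded UMIs, the variance of a gene list's share was divided by the binomial variance, so that a value of 1 means no variation seen beyond counting. In the squashed barcodes under 500 genes this ratio was 0.931 for epithelial genes, 0.959 for G2/M genes, 1.02 for NRF2 targets and aldo-keto reductases, 1.11 for nuclear-retained RNA and 1.22 for large ribosomal subunit genes. In squashed barcodes with 500 or more genes it was 1.14 for epithelial genes, 1.77 for G2/M genes, 1.80 for NRF2 targets, 4.48 for large ribosomal subunit genes and 21.3 for nuclear-retained RNA. Nuclear-encoded genes of oxidative phosphorylation differed little between the classes, with 1.15 under 500 genes and 1.27 with 500 or more. The ratio also depends on the level of a list, since at the same relative spread it is nearer 1 for a lower mean share. Mean shares of nuclear-retained RNA were 0.266% under 500 genes and 2.17% with 500 or more in the squashed library. In these lists the squashed barcodes under 500 genes thus varied little beyond counting at this depth, which can miss variation in lists of few UMIs. Their MT- share varied widely, with a variance 94.6 times the binomial at 1000 UMIs.

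The control barcodes under 500 genes varied more in 9 of the 10 lists. Annexins and S100 proteins were the exception, with 1.01 in the control and 1.23 in the squashed library, and nuclear-encoded genes of oxidative phosphorylation were close, with 1.22 and 1.15. The ratio in the control library was 1.52 for NRF2 targets, 1.66 for epithelial genes, 1.82 for G2/M genes, 2.87 for large ribosomal subunit genes and 4.89 for nuclear-retained RNA. For the last, 86 of 142 NEAT1 UMIs at full depth came from 2 barcodes. Control mean shares were above squashed ones for nuclear-retained RNA (0.862% against 0.266%), epithelial (1.11% against 0.601%) and G2/M genes (0.662% against 0.463%). They were below for NRF2 targets (6.37% against 6.65%) and large ribosomal subunit genes (19.4% against 22.4%). The MT- share of the control barcodes under 500 genes varied 224 times the binomial variance. The squashed barcodes below 1000 UMIs had ratios between 0.966 and 1.35 for all lists but nuclear-retained RNA, at 2.71. The low variation of nuclear-encoded RNA was thus also found in the squashed barcodes with fewer UMIs. No estimate was made of cell-free RNA in the droplets, whose part in these values was not tested.

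**Figure D4:**
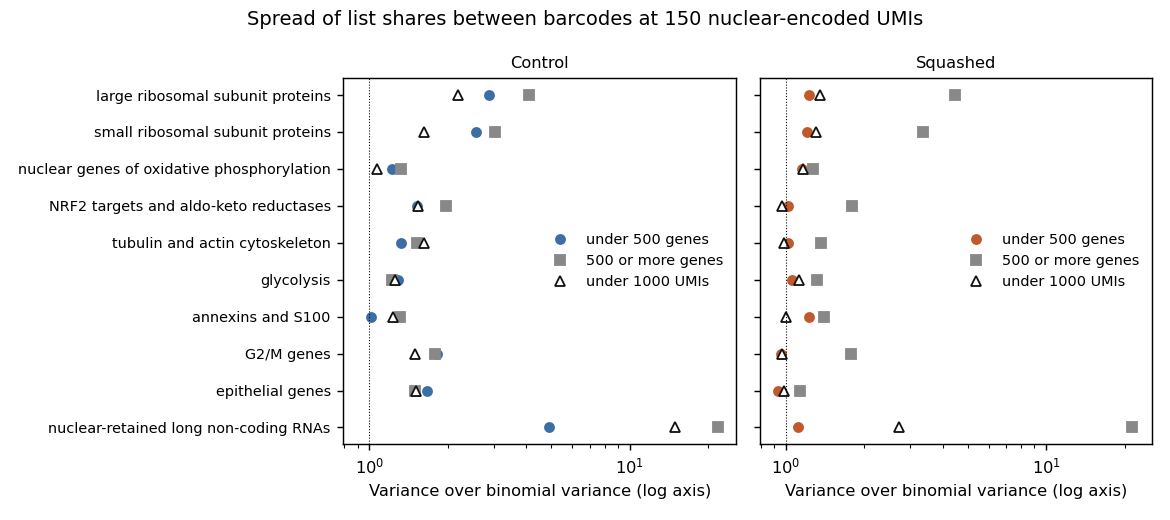
For each gene list, points give the variance of its share of 150 thinned nuclear-encoded UMIs over the binomial variance, on a log axis, in barcodes under 500 genes, with 500 or more genes and below 1000 UMIs of each library. Squashed barcodes under 500 genes lie between 0.931 and 1.23 for every list shown, while nuclear-retained RNA reaches 21.3 in squashed barcodes with 500 or more genes.

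Squashed barcodes under 500 genes were then set against control barcodes under 500 genes. Of 1091 measured genes, 132 stood 2-fold or more above control (12.1%) and 52 stood 2-fold or more below it (4.77%), with a median of 0.10. TMM scaling moved that median by 0.60 and a denominator with MT- UMIs by 0.82, which turns the sign of G2/M genes and, with the latter, of ER chaperones, but not of epithelial genes, NEAT1, KRT18, KRT81 or UBE2S. Only 2 genes higher and 8 lower had their whole interval past 2-fold (0.183% and 0.733%). In barcodes with 500 or more genes, 36 of 2265 were at least 2-fold higher (1.59%) and 123 lower (5.43%). The libraries' barcodes under 500 genes also differed in MT- share and in gene number, given above, whose part in these ratios was not tested.

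Genes lower in the squashed barcodes included several that were as low in the other barcodes of that library. KRT18, a keratin of simple epithelia encoded at chr12:52948871-52952906, stood at 557 CPM in squashed and 1780 CPM in control barcodes under 500 genes, a log2 ratio of -1.68 (-2.10 to -1.24), and its ratio with 500 or more genes was -1.80. KRT81 stood at 3223 and 10069 CPM, -1.64 (-1.82 to -1.47), and -1.53 in the other barcodes. SLC25A3, the mitochondrial phosphate carrier, had -1.63 and -2.02, and PSMD8, a proteasome subunit, -1.62 and -1.58. TPM1, an actin-binding tropomyosin, stood at 346 and 1265 CPM, -1.87 (-2.40 to -1.33), against -1.27 in the other barcodes. CCND1, the G1 cyclin D1, had -1.90 and -1.27. For KRT18, KRT81, SLC25A3 and PSMD8 the ratio in the other barcodes lay within the interval of the barcodes under 500 genes.

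Other genes were lower mainly between the barcodes under 500 genes. UBE2S stood at 106 CPM in squashed and 679 CPM in control barcodes under 500 genes, a log2 ratio of -2.68 (-3.55 to -1.83), and had -0.77 (-1.04 to -0.51) with 500 or more genes. PRMT1 stood at 452 and 1592 CPM, -1.82 (-2.28 to -1.35), against -0.26 (-0.39 to -0.13). Of the 115 PRMT1 UMIs at full depth in the control barcodes under 500 genes, 40 came from 2 barcodes, and at 1000 UMIs the gene was found in 25.6% of control and 22.1% of squashed barcodes. FTH1 stood at 2181 and 4262 CPM, -0.97 (-1.22 to -0.71), against 0.08 (0.01 to 0.16). NEAT1 had -4.67 (-5.69 to -3.85), against -0.48, and MALAT1 -1.09 (-1.32 to -0.85), against 0.12. MTRNR2L12, at 6216 and 15362 CPM, had -1.31 (-1.44 to -1.17), against 0.47. Per 1000 MT- UMIs, as given above, MTRNR2L12 was not lower in the squashed barcodes under 500 genes. Among those at or below 20% MT-, 6 control and 27 squashed, its ratio was 0.06 (-0.49 to 0.69). The part of the MT- share in its lower CPM was not tested. How many of all measured genes differ as much between the 2 kinds of barcode was not counted, and the difference itself was not tested.

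Without the 2 control barcodes that held most NEAT1, a check chosen after the data were seen, NEAT1 had -3.54 and MALAT1 -0.75. Between barcodes under 500 genes with 20 to 60% MT-, a range also chosen after the data were seen, 26 control and 296 squashed, MALAT1 had 0.07 (-0.41 to 0.63), and nuclear-retained RNA took 0.254% and 0.251% of nuclear-encoded UMIs. The lower MALAT1 of the squashed barcodes under 500 genes was not seen in this range, though the interval still includes lower values. Gene number changed with it, since the median was 438.5 in these 26 control barcodes and 291 in all 133. The part of MT- share, gene number or single barcodes was not tested.

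At the higher end, RPS29, a small ribosomal subunit protein, stood at 8608 CPM in squashed and 1990 CPM in control barcodes under 500 genes, a log2 ratio of 2.10 (1.80 to 2.44), against 1.73 in the other barcodes. RPL8, of the large subunit, went the other way with -1.38 and -0.97, and both have processed copies in the genome that make their counts uncertain. CAV1 had 38 thinned UMIs in squashed and none in control barcodes under 500 genes, at least 2.60-fold higher against the floor of 3 UMIs, and 0.28 on the log2 scale with 500 or more genes. ISG15, an interferon-induced ubiquitin-like protein, had 35 and none, at least 2.39-fold higher, and 1.37 in the other barcodes. TUBA1A, an alpha tubulin, had 23 and none, at least 1.57-fold higher, and 0.96. SAT2, CMC1, CFDP1, NUCB2, POLE3 and CSE1L had 21 to 26 thinned UMIs against none. CYB5D2 had 20 against none, but 18 of its 24 UMIs at full depth came from 1 squashed barcode. PIN4, a peptidyl-prolyl isomerase, had 46 against 1, a ratio of 2.67 (0.69 to 8.57), and TCEAL4 41 against 1, 2.50 (0.51 to 8.41). These genes with 0 or 1 control UMI passed the filter only through the squashed barcodes, where they are high. Their place at this end is therefore not read as a result.

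**Figure D5:**
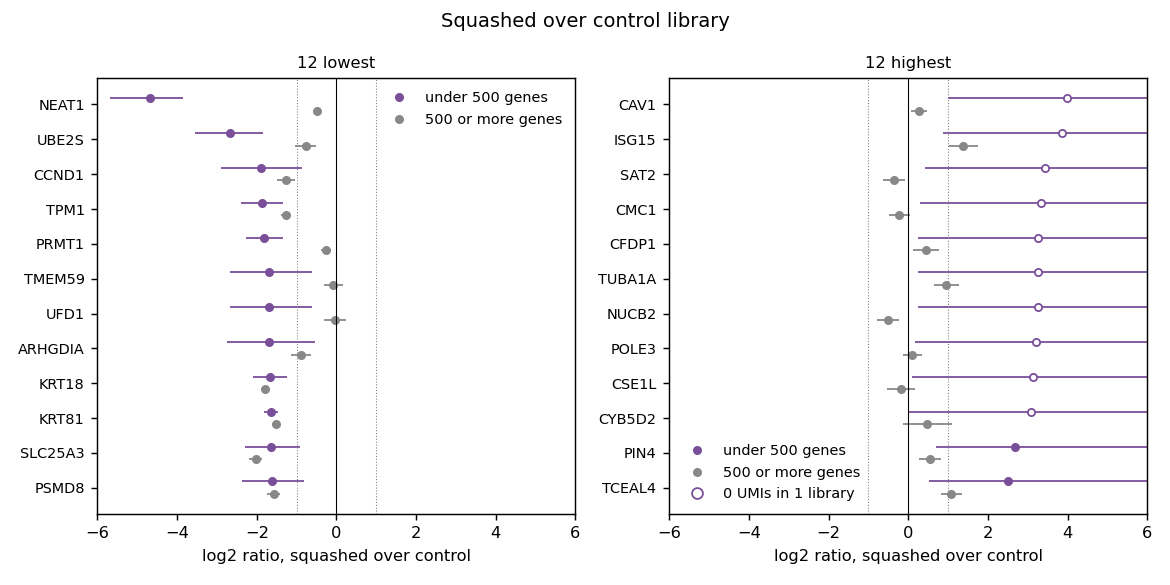
Points give the log2 ratio of CPM, squashed over control library, with 95% counting intervals, in barcodes under 500 genes and in barcodes with 500 or more genes, for the 12 genes lowest and the 12 highest in barcodes under 500 genes; open circles mark genes without a UMI in control barcodes under 500 genes. KRT18 and KRT81 lie near -1.68 and -1.64 in barcodes under 500 genes and near the same place in the others, while NEAT1 lies at -4.67 and -0.48.

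By list, the differences between the libraries were as follows in both kinds of barcode, which share the 2 libraries. Epithelial genes summed to 5750 CPM in squashed and 13886 CPM in control barcodes under 500 genes, a log2 ratio of -1.27 (-1.42 to -1.13), against -1.18 (-1.21 to -1.15) in the others, with KRT18 and KRT81 carrying the sum while KRT8 had 0.25 and 0.47. Metallothioneins, which bind metals, had 0.94 (0.57 to 1.35), against 1.42, from MT2A and MT1X. Nuclear-encoded genes of oxidative phosphorylation had 0.41 (0.31 to 0.51), against 0.24, with 9 of 49 at least 2-fold higher, where 12.1% of all measured genes were, and none lower. Glycolysis had 0.42 and 0.24, annexins and S100 proteins 0.43 and 0.28, and G2/M genes -0.48 and -0.34. ER chaperones had -0.67 (-0.94 to -0.39), against -0.32, with CALR, calreticulin, at -1.17 and -1.10 and P4HB, a disulfide isomerase, at -1.06 and -0.42. Ribosomal protein genes had sums of 0.16 and 0.12 for the large and small subunit, against 0.13 and 0.11. Nuclear-retained RNA was the exception, with -1.47 (-1.68 to -1.26) under 500 genes and 0.03 (0.01 to 0.06) in the others. Its control share of nuclear-encoded UMIs under 500 genes was 0.693%, and 0.497% without the 2 barcodes that held most NEAT1. At 20 to 60% MT- the shares under 500 genes were 0.254% in the control and 0.251% in the squashed library.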

How the data were processed

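The files hold UMI counts per gene and barcode, whole numbers as the authors deposited them, for 36601 genes. Library preparation used a 10x Genomics 3.1 kit. Counting was done on GRCh38 with Cell Ranger; the labels' design text gives version 5.0.1, whereas per the file headers it was 4.0.0. The submitters' processing notes list R 4.3.2 for an unstated step. For the cell-calling rule, the sources used here give nothing.

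Barcodes were taken with at least 1000 UMIs and divided at 500 genes. They were thinned without replacement to 1000 UMIs and, for gene numbers and variation of nuclear-encoded RNA, to 150 nuclear-encoded UMIs. Counts were summed per class and scaled to nuclear-encoded UMIs, because the MT- share differs between the classes. Log2 ratios used a prior of 0.5 count, with exact Clopper-Pearson 95% intervals, and a floor of 3 counts where a class had none. No doublet caller was run and no doublets were removed. The total depth was 30565366 UMIs in the control and 26829300 in the squashed library.

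Named genes were the 12 highest and 12 lowest by the ratio nearer to 0 among genes with 1 sign in both libraries, the 12 highest and 12 lowest between the libraries, up to 4 genes per described list of the 34 lists, the MT- genes, MALAT1 and NEAT1. Others were named after their values were seen. The barcodes, lists and tests were chosen with earlier results of these data known.

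scipy 1.17.1 and numpy 2.4.6 in Python 3.11.15, with pandas 2.3.3, Biopython 1.88, matplotlib 3.10.9 and, for TMM scaling as an alternative, edgeR 4.0.16 in R 4.3.3 were used. Transcript lengths and coordinates came from GENCODE 44 on GRCh38, and the positions of the MTRNR2L pseudogenes from RefSeq GRCh38.p14. All sequences were read from the GRCh38 (hg38) genome. The scripts were tested on simulated data. Alternatives changed the gene limit, the MT- share, thinning, scaling, the filter on low values and the seed. Whether the libraries' cells came from separate cultures is not stated in the sources used here.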

Additional observations from a re-analysis of the deposited data

Results flagged for a closer look

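For 3 results the ratio of barcodes under 500 genes to barcodes with 500 or more had intervals on opposite sides of 0 in the 2 libraries. AKR1C3, an aldo-keto reductase, had a log2 ratio of -0.42 (-0.87 to -0.02) in the control and 0.23 (0.05 to 0.39) in the squashed library. OST4, a subunit of the oligosaccharyltransferase, had -0.71 (-1.60 to -0.03) and 0.23 (0.01 to 0.44). The summed list of NRF2 targets and aldo-keto reductases had -0.14 (-0.20 to -0.08) and 0.0849 (0.06 to 0.11). Each is 1 library's value, and the difference between the libraries was not tested.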

How the results depend on the processing

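Under a limit of 400 genes the barcodes made up 3.61% of control and 3.64% of squashed barcodes, with MT- shares of 76.8% and 48.2%; genes at least 2-fold higher than in the other barcodes numbered 234 in the control and 62 in the squashed library, 209 were lower in the squashed library, and between the libraries 47 were higher and 10 lower in squashed. The excess of barcodes under the limit in the squashed library thus depends on the limit. Under 600 genes the shares were 6.76% and 17.7%, the MT- shares 57.6% and 39.1%, with 73 genes higher in the control, 31 lower in the squashed library and 83 lower between the libraries. At most 20% MT-, the shares were 0.233% and 0.862%, the MT- shares 9.02% and 15.3%, with 395 genes higher in the control, 177 higher and 320 lower in the squashed library, and 61 higher and 24 lower between the libraries, where MTRNR2L12 turned to 0.0594. Without thinning the MT- shares were 74.5% and 47.2%, with 76 higher in the control, 124 lower in the squashed library and 84 lower between the libraries.

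With MT- UMIs in the denominator, genes higher and lower than in the other barcodes numbered 3 and 1549 in the control, 9 and 310 in the squashed library, and 488 and 4 between the libraries; the median of measured genes moved by -1.46, -0.56 and 0.82. With TMM it moved by -0.48 in the control and 0.60 between the libraries, with 46 and 691, and 359 and 12. At 20 CPM and 10 UMIs the numbers were 546 and 743, 78 and 412, and 262 and 173, and at 200 CPM they were 14 and 32, 9 and 2, and 56 and 21. Another seed left all of these within 1.5 times.

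The following were chosen after the data were seen. Without a filter the numbers were 8537 and 743, 3967 and 1770, and 644 and 3124. With at least as many genes as the lowest squashed barcode, the control share was 2.60% and its MT- share 55.1%, with 183 genes higher. At 20 to 60% MT- on both sides, the MT- shares were 40.9% and 42.1%, 155 and 361 genes were lower in the control and squashed library and 88 between the libraries. There the squashed library's COL18A1 turned to -0.16, COL4A2 to -0.0309, ITGAV to -0.35, PLEC to -0.68 and CHD4 to -0.20, and MALAT1 between the libraries to 0.0664. Without the 2 control barcodes richest in NEAT1, the control MT- share was 68.2%. The cause of these changes was not tested. Genes with 3 UMIs or fewer on a side were not followed as single results. No paired analysis was possible because each group is 1 library.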
